A study of Mus musculus with 16 samples.

Results

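Interleukin 11 and the genes of gp130 signalling were followed in cultured mouse ovarian follicles: the ligands Il11, Il6 and Lif, the shared receptor subunit Il6st, the oncostatin M receptor subunit Osmr, the transcription factor Stat3 and the feedback inhibitor Socs3. These 7 of 18193 genes were chosen by symbol, and every probe set annotated to one of them alone was taken, which gave 18 of the 34945 probe sets with a single symbol, of which 15 passed the filter on low signal. Signals were read in all 16 arrays. There were 4 groups of 4 arrays: follicles cultured for 24 h with 50 ng/ml recombinant anti-Müllerian hormone (AMH), untreated controls at 24 h, AMH-treated follicles at 12 h and untreated controls at 12 h. All follicles were preantral to small antral and came from female C57BL/6Tac mice of 6 to 8 weeks (8 weeks in each sample's label). Medium in all groups, controls included, held 80 IU/L FSH and 10 IU/L LH. Each experiment drew on 1 pool from 8 mice, divided between AMH and control drops, so an AMH array and a control array of one time and number form a pair, and each array held RNA of 6 to 9 follicles. Replicates are therefore separate pools, not single animals, and uncultured follicles were not among the samples analysed here.

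Cytokines of the gp130 family bind a ligand-specific receptor subunit together with gp130, the protein made by Il6st, and the complex activates JAK kinases. These phosphorylate STAT3, which enters the nucleus and switches on genes that include Socs3, whose protein binds gp130 and the kinases and ends the signal. In the ovary, members of the family are known mainly from the ovulatory response, in which granulosa and cumulus cells release interleukin 6 and related cytokines.

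Values are deposited linear signals from MAS5, scaled so that the trimmed mean of each array was 150, and tests used log2(signal + 1.46), called log2 signal here. A gene was tested if its mean log2 signal over all arrays reached 4.18, the 40th percentile of these means over all probe sets. That level equals a signal of 16.6, and 12172 genes passed. Array medians lay between 27.8 and 40.2, and log2 signals of arrays of one group correlated at 0.955 to 0.974. All 11 granulosa markers with a probe set passed the filter (Inha and Amhr2 were the brightest), as did all 12 oocyte markers, which include Zp3 and Oosp1. Summed granulosa marker signal was 9317 to 16948 in AMH and 8900 to 14797 in control arrays at 24 h, against 4518 to 9753 in AMH and 3847 to 7833 in control arrays at 12 h. Each array holds whole follicles, so fewer cells of a type and less RNA per cell cannot be told apart. A difference between probe sets in brightness depends on their probes, so levels are compared within a probe set only.

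The promoters of the 3 members that fell with time in both arms are shown because the results turn on these genes, and all 3 genes lie on the minus strand. RefSeq windows on GRCm38.p6 run from 250 bases before to 50 bases after an annotated start. Il11 has 2 such windows in the table, and the one shown, the downstream one, was chosen because it holds a searched motif. The Il11 window is chr7:4778092-4778391, the Osmr window chr15:6874264-6874563 and the Socs3 window chr11:117969317-117969616, each printed 5′ to 3′ on the gene's strand. Capitals mark matches to the AP-1 letters TGANTCA (Il11, Osmr) or to the STAT letters TTCNNNGAA (Socs3), searched on both strands.
Il11: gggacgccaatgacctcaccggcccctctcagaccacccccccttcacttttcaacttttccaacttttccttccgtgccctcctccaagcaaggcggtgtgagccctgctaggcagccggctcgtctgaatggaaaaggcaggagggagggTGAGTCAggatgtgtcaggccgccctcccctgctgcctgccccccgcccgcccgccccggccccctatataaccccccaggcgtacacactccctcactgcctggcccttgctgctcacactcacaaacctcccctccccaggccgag
Osmr: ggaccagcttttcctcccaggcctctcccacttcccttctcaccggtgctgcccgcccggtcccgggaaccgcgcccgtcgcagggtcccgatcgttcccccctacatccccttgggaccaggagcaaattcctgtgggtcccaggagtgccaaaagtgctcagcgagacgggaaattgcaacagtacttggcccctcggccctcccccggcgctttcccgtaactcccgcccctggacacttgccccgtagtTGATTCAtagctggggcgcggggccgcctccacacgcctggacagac
Socs3: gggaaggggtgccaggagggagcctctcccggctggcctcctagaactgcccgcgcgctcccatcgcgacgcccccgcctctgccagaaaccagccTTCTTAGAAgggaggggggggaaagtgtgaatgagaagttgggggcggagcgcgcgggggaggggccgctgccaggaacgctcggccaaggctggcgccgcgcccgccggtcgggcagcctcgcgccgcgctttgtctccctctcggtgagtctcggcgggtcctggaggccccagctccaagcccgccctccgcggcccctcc
The AP-1 letters begin 98 bases before the start in Il11 and 3 bases after it in Osmr. The STAT letters begin 154 bases before the start in Socs3. Over all members, 4 of 8 windows held the AP-1 letters (Il6 at 249 and Lif at 228 bases before the start were the others), against 7.81% of 32851 promoter windows. The STAT letters were in 1 of 8 windows, against 8.30% of all windows, and the CRE letters TGACGTCA were in 0 of 8, against 1.79%. The 3 motifs do not share letters in these windows, and a match describes the sequence alone.

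Il11, Osmr and Socs3 were lower at 24 h than at 12 h in both the AMH and the control follicles, and no member was called (adjusted p under 0.05) for AMH against control. In controls Il11 fell most, to 2.92 ± 1.18 log2 signal at 24 h against 7.47 ± 1.07 at 12 h (SD, n = 4 each). All Il11 signals at 24 h were under the filter level, so the size of this fall depends on the offset. The gene passed the filter through its 12 h signals. Il6st and Stat3 showed no called change in either arm. The plot of the members in each array shows all groups side by side.

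**Figure D1:**
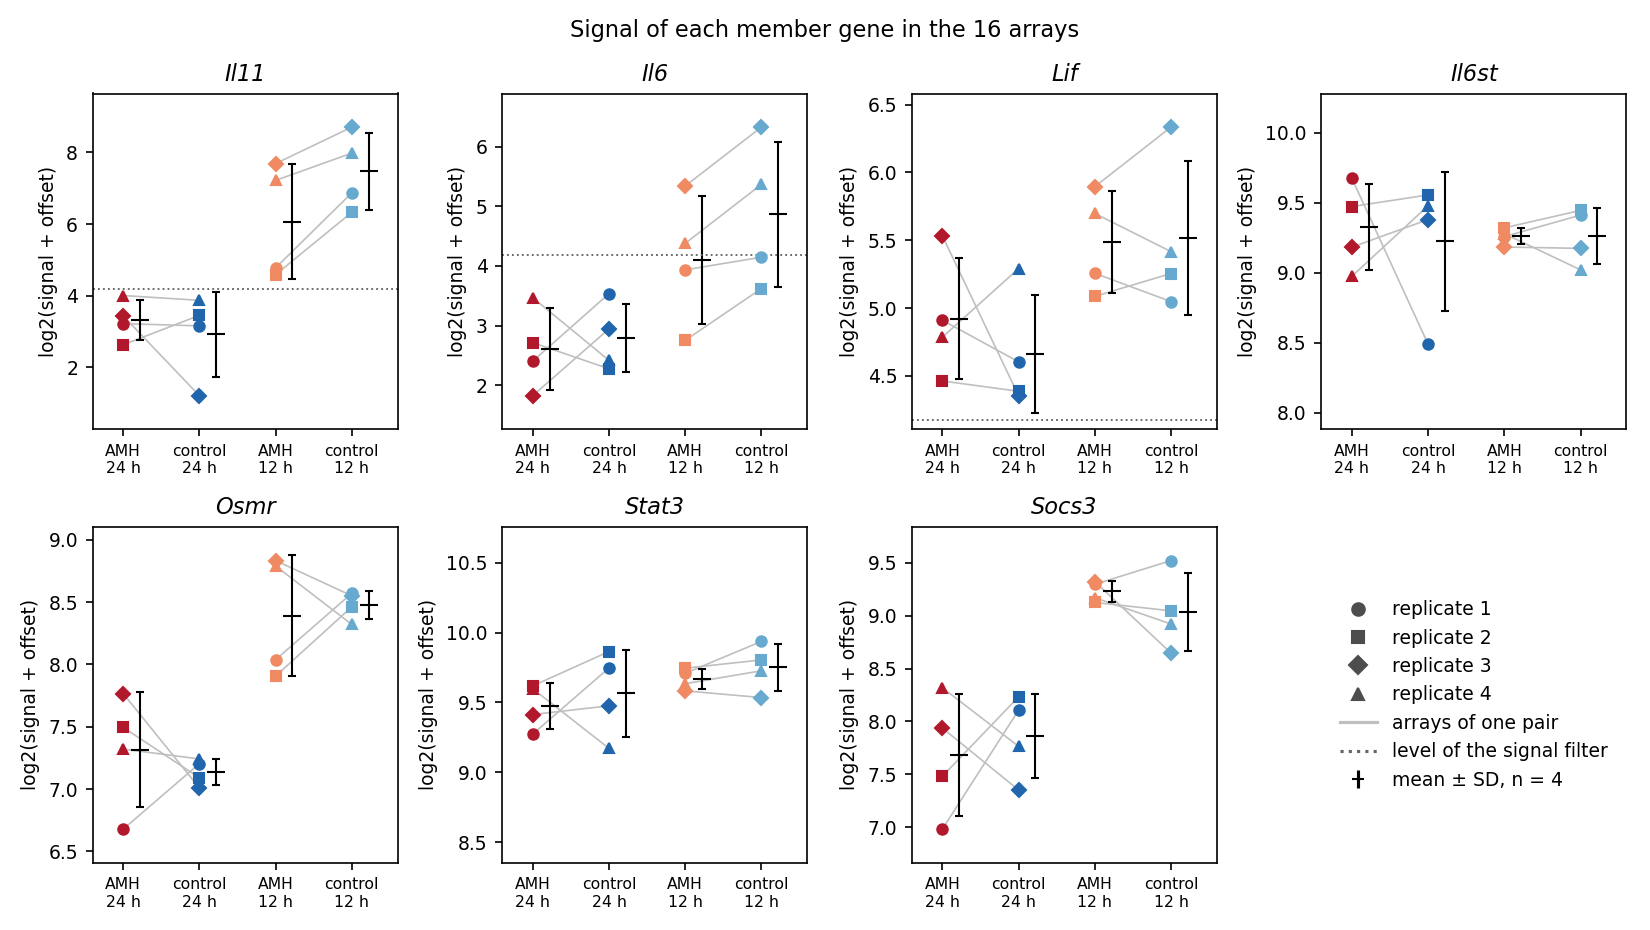
Log2 signal of the 7 member genes (vertical axes, log2 of signal plus 1.46) in each of the 16 arrays, with groups along the horizontal axes, points for arrays, grey lines joining pairs, black marks for the mean ± SD and a dotted line at the filter level. Il11, Osmr and Socs3 sit lower at 24 h than at 12 h in both arms with no overlap, while Il6st and Stat3 overlap throughout.

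Among the ligands, Il11 encodes interleukin 11, a cytokine that signals through its own receptor subunit and gp130 and is known for its role in decidualisation of the uterus. The gene lies at chr7:4772373-4782907. Its probe set gave signals of 7.86, 4.73, 9.37 and 14.6 in the AMH arrays 1 to 4 at 24 h and 7.47, 9.48, 0.848 and 13.2 in the controls at 24 h. At 12 h the signals were 26.0, 22.6, 204.9 and 147.6 with AMH and 115.8, 79.0, 416.9 and 251.6 in the controls. Every 24 h array was below every 12 h array of its arm, and all 8 arrays at 24 h were under the filter level of 16.6 while none at 12 h was. Il11 was thus tested because of its 12 h signals. Arrays 3 and 4 were the highest at 12 h in both arms.

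In the AMH arm the change of Il11 between 24 h and 12 h was −2.75 ± 0.72 (SE) on the log2 scale, a 6.71-fold lower level (limma adjusted p = 0.0279). In the control arm it was −4.55 ± 0.72, a 23.4-fold lower level (limma adjusted p = 0.000632). Since Il11 passed the filter through its 12 h signals, the fit with no filter over 18193 genes is given beside these. Its limma adjusted p was 0.0359 with AMH, where 2.16% of genes were called lower, and 0.000733 in controls, where 5.35% were. With every signal under 16.6 set to 16.6, the level at 24 h was at least 3.72-fold lower with AMH and at least 9.84-fold lower in controls. In the AMH arm the call was lost without any single replicate (limma adjusted p from 0.0557 to 0.125), and in controls the change shrank to −3.57 without replicate 3. Of all genes tested, 3.94% were called lower at 24 h with AMH and 9.19% in controls. The 24 h arrays were all below the 12 h arrays for 7.65% of genes with AMH and for 10.9% in controls. Mean log2 signal was 3.32 ± 0.57 with AMH and 2.92 ± 1.18 in controls at 24 h, and 6.07 ± 1.61 with AMH and 7.47 ± 1.07 in controls at 12 h (SD, n = 4 each). The order from the highest was thus controls at 12 h, AMH at 12 h, AMH at 24 h and controls at 24 h. The 12 h groups overlapped each other, as did the 24 h groups, and no 24 h array of either arm reached the lowest 12 h array.

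Il6, which encodes interleukin 6, a cytokine of inflammation and of cumulus cells in ovulation (chr5:30013114-30019975), did not reach the filter with its one probe set and stood outside the main test. Its signals were 3.83, 5.10, 2.08 and 9.60 with AMH at 24 h and 10.1, 3.38, 6.24 and 3.87 in controls at 24 h. At 12 h they were 13.8, 5.27, 39.0 and 19.3 with AMH and 16.2, 10.8, 78.8 and 39.8 in controls. Arrays 3 and 4 were the highest at 12 h, as for Il11, and only these passed 16.6 in either arm. Control arrays at 24 h were all below those at 12 h, whereas the AMH arrays overlapped. Fitted with no filter over 18193 genes, Il6 changed by −1.50 ± 0.59 in the AMH arm (SE, limma adjusted p = 0.173), where 2.16% of genes were called lower. In controls it fell in that fit, with a change of −2.07 ± 0.59 (SE, limma adjusted p = 0.0306), where 5.35% were called lower. With signals under 16.6 set to that level, its change was −0.34 with AMH and −0.84 in controls.

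Lif encodes leukaemia inhibitory factor, a gp130 cytokine known for embryo implantation and for keeping mouse embryonic stem cells undifferentiated (chr11:4257568-4272514). Its brighter probe set read 28.6, 20.6, 44.8 and 26.1 with AMH and 22.9, 19.5, 19.0 and 37.7 in controls at 24 h. At 12 h it read 36.8, 32.5, 58.0 and 50.4 with AMH and 31.6, 36.7, 79.2 and 41.2 in controls. The times overlapped in both arms. The change was −0.56 ± 0.32 with AMH (limma adjusted p = 0.307) and −0.85 ± 0.32 in controls (SE, limma adjusted p = 0.0702), so neither was called. The control change passed the threshold under other scaling: −1.06 with quantile normalization (limma adjusted p = 0.0253) and −1.03 with median centring (limma adjusted p = 0.0251). The dimmer probe set changed by −0.71 and −0.73 in the AMH and control arms.

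Of the receptor subunits, Osmr pairs with gp130 to bind oncostatin M (chr15:6813568-6874968). Signals at 24 h were 100.9, 178.9, 216.3 and 158.4 with AMH and 145.9, 134.7, 127.3 and 149.8 in controls. Signals at 12 h were 261.4, 238.5, 454.9 and 441.3 with AMH and 379.0, 351.4, 373.6 and 318.3 in controls. The times did not overlap in either arm for this probe set, the brightest, and the AMH arrays spread more widely than the controls. Osmr fell by 1.08 on the log2 scale in the AMH arm (SE 0.23, 2.11-fold, limma adjusted p = 0.00797) and fell by 1.34 in controls (SE 0.23, 2.53-fold, limma adjusted p = 0.000913). The AMH call was lost without replicate 4 (−0.95, limma adjusted p = 0.0865).

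The other Osmr probe sets had lower means at 24 h as well. When all 45037 probe sets were fitted separately, 1.25% were called lower at 24 h with AMH and 3.26% in controls. The second Osmr probe set changed by −0.85 in the AMH arm (limma adjusted p = 0.0636) and fell by 1.29 in controls (limma adjusted p = 0.00291). Its times overlapped with AMH, where the highest signal was 182.7 at 24 h and the lowest 165.1 at 12 h, and not in controls. The third, whose mean was under the filter, fell by 1.43 in the AMH arm (limma adjusted p = 0.0476) and changed by −1.24 in controls (limma adjusted p = 0.0515). Mean log2 signal of the brightest Osmr set was 7.31 ± 0.46 with AMH and 7.14 ± 0.11 in controls at 24 h, and 8.39 ± 0.49 with AMH and 8.48 ± 0.11 in controls at 12 h (SD, n = 4 each). The order of the 4 groups was that of Il11, and groups of one time overlapped.

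Il6st makes gp130 itself, the subunit on which all of these cytokines depend (chr13:112464070-112506860). It read 815, 709, 580 and 502 with AMH and 358, 751, 665 and 712 in controls at 24 h. At 12 h it read 611, 638, 580 and 620 with AMH and 680, 696, 576 and 518 in controls. Control array 1 at 24 h was the lowest of the 16 for this probe set, the brightest, and the 4 groups overlapped. The change between 24 h and 12 h was 0.07 ± 0.20 with AMH and −0.04 ± 0.20 in controls (SE, limma adjusted p = 0.886 and 0.920). The other 3 probe sets changed by −0.16 to 0.09 in the AMH arm and by −0.07 to 0.06 in controls. Group means of the brightest set lay between 9.23 and 9.33 log2 signal.

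Stat3, the transcription factor downstream of the receptors (chr11:100886806-100939594), read 617, 785, 681 and 774 with AMH and 858, 930, 711 and 575 in controls at 24 h. At 12 h it read 835, 857, 765 and 793 with AMH and 978, 893, 740 and 846 in controls. The times overlapped in both arms for this probe set. Its change was −0.19 ± 0.14 in each arm (SE, limma adjusted p = 0.431 with AMH and 0.368 in controls). The second Stat3 probe set changed by −0.30 in the AMH arm and −0.28 in controls (limma adjusted p = 0.373 and 0.273), and its 24 h arrays were all below the 12 h arrays with AMH but not in controls. The other two, both dim, changed by −0.52 and 0.17 in the AMH arm and by −0.12 and −0.03 in controls.

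Socs3, which encodes a suppressor of cytokine signalling that STAT3 induces and that acts on gp130 (chr11:117966079-117970336), read 124.7, 177.1, 243.6 and 317.8 with AMH at 24 h. Controls at 24 h read 273.9, 299.1, 161.8 and 215.8. At 12 h the signals were 627.5, 557.0, 639.2 and 574.5 with AMH and 733.5, 527.2, 399.1 and 483.5 in controls. The times did not overlap in either arm for this probe set, the brightest, and the AMH arrays at 12 h lay close together. Socs3 fell by 1.55 in the AMH arm (SE 0.25, 2.93-fold, limma adjusted p = 0.00170) and fell by 1.17 in controls (SE 0.25, 2.25-fold, limma adjusted p = 0.00483). Both calls held in each alternative setting tried.

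The brighter 2 of the 3 Socs3 probe sets carry a suffix for probes that may also bind other transcripts, and the dimmest does not. Fitted separately, this last set fell by 1.17 in the AMH arm (limma adjusted p = 0.0417) and fell by 1.23 in controls (limma adjusted p = 0.0171). Its times did not overlap with AMH but did in controls, where the highest signal was 120.9 at 24 h and the lowest 102.3 at 12 h. The middle set fell by 1.34 in the AMH arm (limma adjusted p = 0.00567) and fell by 1.31 in controls (limma adjusted p = 0.00320). Mean log2 signal of the brightest Socs3 set was 7.68 ± 0.58 with AMH and 7.86 ± 0.39 in controls at 24 h, and 9.23 ± 0.10 with AMH and 9.03 ± 0.37 in controls at 12 h (SD, n = 4 each). The groups of one time overlapped, so the order within a time did not stand out from the spread.

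**Figure D2:**
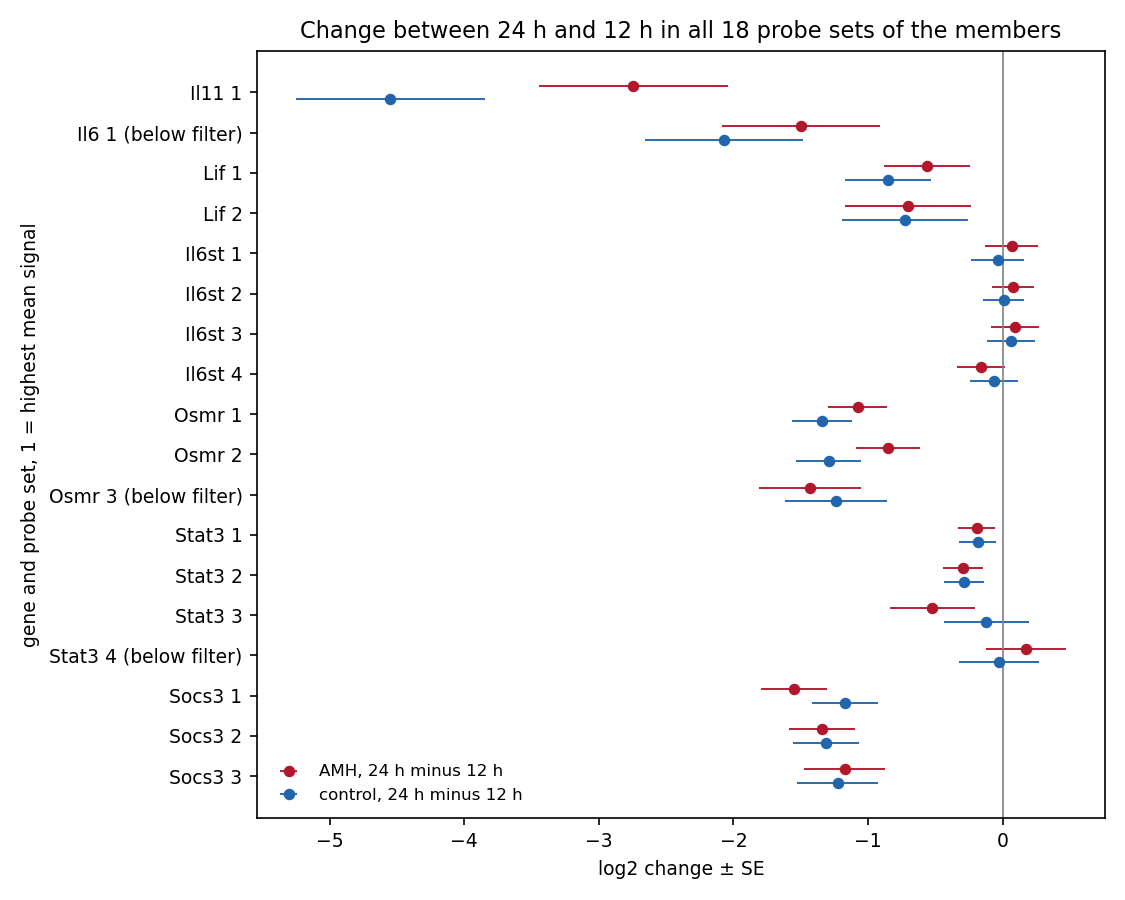
Log2 change between 24 h and 12 h (horizontal axis, points with SE bars) for each of the 18 probe sets of the members (vertical axis), in the AMH and the control arm. The probe sets of Il11, Osmr and Socs3 all lie left of 0, and the 4 Il6st probe sets lie within 0.16 of 0.

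Markers of other cell types also differed between the times. Over granulosa markers the mean log2 signal was 0.93 higher at 24 h with AMH and 0.96 higher in controls, and over stroma and smooth muscle markers 0.93 and 0.61 higher. Theca markers differed by 0.52 with AMH and 0.44 in controls, and oocyte markers by −0.25 with AMH and −0.31 in controls. Macrophage and leukocyte markers differed by −0.04 with AMH and −0.38 in controls. Surface epithelium markers differed by −0.26 with AMH and −0.34 in controls, and endothelial markers by 0.07 with AMH and −0.47 in controls. Of the 10 surface epithelium markers, of which Krt8 and Krt18 were the brightest, 7 were lower and 3 higher at 24 h in each arm. Surface epithelium sums were 2658 to 3886 with AMH and 2927 to 5360 in controls at 24 h, against 4271 to 6867 with AMH and 4806 to 7804 in controls at 12 h. The part of these shifts in the members' changes was not tested. Macrophage and leukocyte markers, a common source of Il6, summed to 451 to 1239 with AMH and 357 to 691 in controls at 24 h, against 463 to 1230 with AMH and 664 to 1415 in controls at 12 h. Of these 12 markers Ptprc, Adgre1, Cx3cr1, Itgam and C1qa were under the filter.

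No member was called for AMH at either time. At 12 h Il11 was lower with AMH in 4 of 4 pairs, with differences of −2.09, −1.74, −1.02 and −0.76 log2 in pairs 1 to 4, a mean change of −1.40 ± 0.43 (SE) or 2.65-fold lower. That difference did not pass the threshold (limma adjusted p = 0.593), where 0% of genes were called (788 had an unadjusted limma p under 0.05) and 7.71% were lower in 4 of 4 pairs. Across the alternatives its adjusted p lay between 0.173 and 1.00 and its change between −1.62 and −1.16. Il6 was also lower with AMH in 4 of 4 pairs at 12 h, with differences of −0.21, −0.87, −0.99 and −0.99, a mean of −0.76 ± 0.41 (SE, fit with no filter, limma adjusted p = 0.878), with 4 of the 8 signals under the filter level. The endothelial markers were lower in the same 4 pairs, with differences of −0.31, −0.28, −0.37 and −0.23 on average over 12 genes, with sums of 1016 to 2786 with AMH and 1177 to 3576 in controls and Vwf alone under the filter. Their part in the Il11 difference was not tested.

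The other members had smaller mean differences at 12 h. The mean AMH minus control change was −0.03 for Lif, −0.00 for Il6st, −0.08 for Osmr, −0.08 for Stat3 and 0.20 for Socs3, with SE values from 0.13 to 0.28. Osmr was lower in pairs 1 and 2 (−0.53 and −0.56) and higher in pairs 3 and 4 (0.28 and 0.47). Socs3 was lower in pair 1 (−0.22) and higher in the others, by up to 0.68. In each of these members the range over the pairs exceeded the size of the mean change. These values are for the brightest probe set. In the middle and dimmest Socs3 sets pairs 1 and 2 were lower and pairs 3 and 4 higher, with mean changes of 0.08 and −0.12.

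At 24 h 0.0164% of the genes tested were called for AMH, none of them a member. No member moved the same way in all 4 pairs, where 3.44% of genes were lower and 5.95% higher in 4 of 4. Il11 differed by 0.06, −0.82, 2.23 and 0.13 in pairs 1 to 4, and its mean of 0.40 ± 0.43 (SE) became −0.21 without pair 3, in which the control signal was 0.848. Socs3 was lower in pairs 1 and 2 (−1.13 and −0.75) and higher in pairs 3 and 4 (0.59 and 0.56) in its brightest probe set. The mean change was 0.05 in the middle Socs3 set and −0.07 in the dimmest, which was lower in pair 2 alone. Il6st was 1.19 higher in pair 1 and differed by −0.08, −0.20 and −0.50 in the others. That is its brightest probe set, and pair 1 differed by 0.72, 0.41 and 0.02 in the other Il6st sets. The mean changes were 0.26 for Lif, 0.10 for Il6st, 0.18 for Osmr, −0.09 for Stat3, −0.18 for Socs3 and −0.19 for Il6. The Stat3 sign turned with median centring (0.03), which moved the median of all genes to 0.12.

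The AMH effect was also compared between the times, which asks whether the culture change differed between the arms. The difference was 1.81 ± 0.60 log2 for Il11 (SE, limma adjusted p = 0.749), so the difference between the arms in the fall of Il11 did not pass the threshold. All Il11 signals at 24 h were under the filter level, and with an offset of 16 its value was 1.25. The difference between the times was −0.38 for Socs3, 0.29 for Lif, 0.26 for Osmr, 0.10 for Il6st and −0.01 for Stat3. In the middle and dimmest Socs3 probe sets it was −0.03 and 0.05. The Stat3 value became 0.15 with median centring. No gene was called in this comparison (0% of those tested), and 687 had an unadjusted limma p under 0.05.

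**Figure D3:**
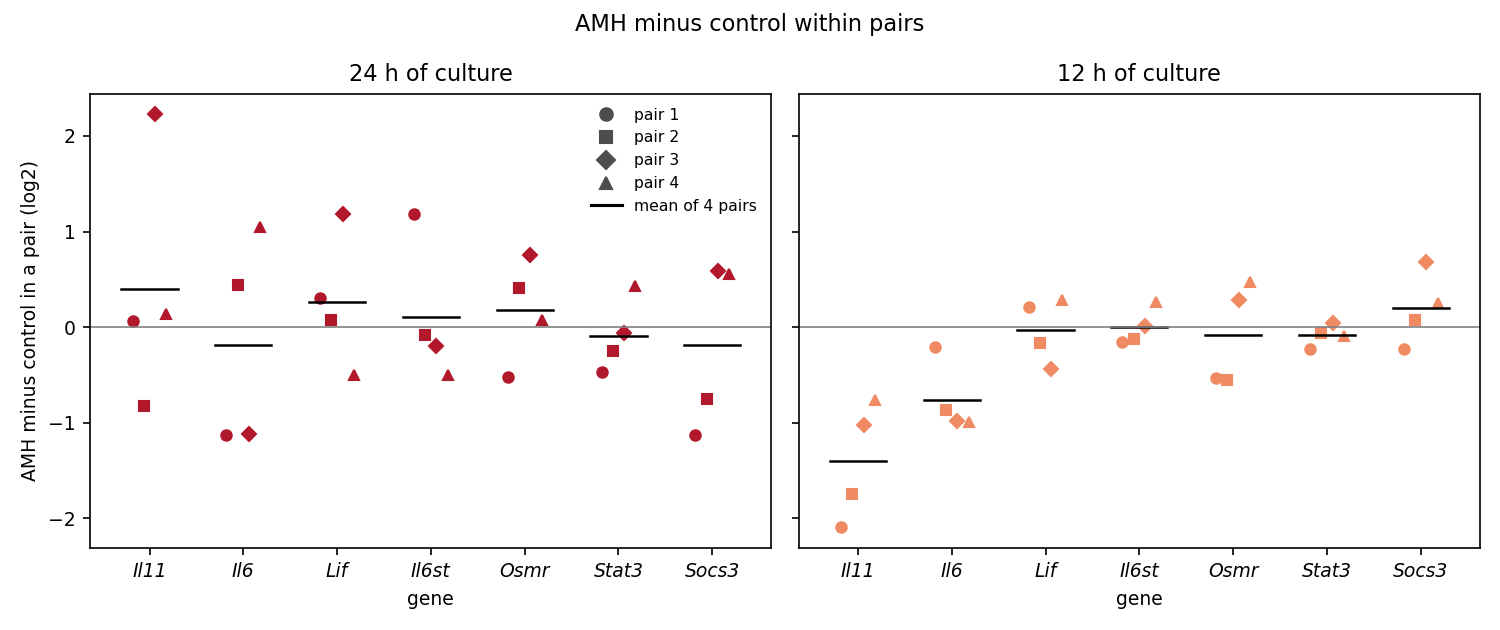
AMH minus control difference in log2 signal (vertical axes) for each member gene (horizontal axes) at 12 h and at 24 h, with points for the 4 pairs and a bar for their mean. Il11 and Il6 lie below 0 in all 4 pairs at 12 h, and at 24 h the pairs of each member fall on both sides of 0.

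Genes around the members were grouped by role: 11 gp130 cytokines, 8 receptors of the family, 11 JAK and STAT genes and 16 inhibitors. Their changes between 24 h and 12 h use the same arrays as those of the members and are given beside the whole array. Of all genes tested, 4.34% were called higher and 3.94% lower in the AMH arm, and 9.96% higher and 9.19% lower in controls. The calls thus split into 528 higher and 480 lower in the AMH arm and 1212 higher and 1118 lower in controls. With median centring the control split was 612 higher and 1873 lower, since the median change of all genes moved to −0.19. Without the members, 25 of 39 genes of these 4 lists were tested, with 1 higher and 4 lower in the AMH arm and 2 higher and 5 lower in controls. Their median change was 0.11 in the AMH arm and −0.12 in controls, and that of all genes was −0.02 in the AMH arm and −0.01 in controls.

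Among the cytokines 7 of 11 had a probe set with a single symbol and 4 were tested, and 2 fell in both arms, Il11 and Clcf1. Clcf1, cardiotrophin-like cytokine factor 1, is a ligand of the ciliary neurotrophic factor receptor complex. It averaged 7.34 ± 0.84 log2 signal with AMH and 7.52 ± 0.52 in controls at 24 h, against 9.04 ± 0.37 with AMH and 8.92 ± 0.35 in controls at 12 h (SD, n = 4 each). It fell by 1.70 in the AMH arm (SE 0.35, limma adjusted p = 0.00698) and fell by 1.40 in controls (SE 0.35, limma adjusted p = 0.0105). The oncostatin M gene, Osm, was among the 7 cytokine genes that were not tested.

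Of the receptors 6 of 8 had a probe set with a single symbol and 5 were tested, and Osmr and Il6ra fell in both arms. Il6ra, the interleukin 6 binding subunit, fell by 1.13 in the AMH arm (SE 0.19, limma adjusted p = 0.00186) and fell by 1.33 in controls (SE 0.19, limma adjusted p = 0.000283). Il27ra, which binds interleukin 27, changed by 0.57 in the AMH arm (limma adjusted p = 0.275) and rose by 1.10 in controls (SE 0.31, limma adjusted p = 0.0205). In controls Il27ra averaged 3.89 log2 signal at 12 h, under the filter level of 4.18, and 4.99 at 24 h. Neither gene of the interleukin 11 receptor alpha chain, Il11ra1 or Il11ra2, was tested, so the receptor side of Il11 is given through Il6st alone.

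Of the JAK and STAT genes 8 of 11 were tested and 1 was called. Jak2, a kinase bound to gp130, fell by 0.59 in the AMH arm (SE 0.12, limma adjusted p = 0.00811) and fell by 0.50 in controls (SE 0.12, limma adjusted p = 0.0107). Of the inhibitors 14 of 16 were tested, with 1 higher and 2 lower in the AMH arm and 1 higher and 3 lower in controls. Socs5, another suppressor of cytokine signalling, fell by 0.73 in the AMH arm (limma adjusted p = 0.00794) and fell by 0.94 in controls (limma adjusted p = 0.000749). Ptpn2, a phosphatase of JAK and STAT proteins, changed by −0.29 in the AMH arm (limma adjusted p = 0.0722) and fell by 0.33 in controls (limma adjusted p = 0.0229). Socs2, which restrains growth hormone signalling, rose by 0.86 in the AMH arm (limma adjusted p = 0.0280) and by 0.78 in controls (limma adjusted p = 0.0247), the opposite direction to Socs3.

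**Figure D4:**
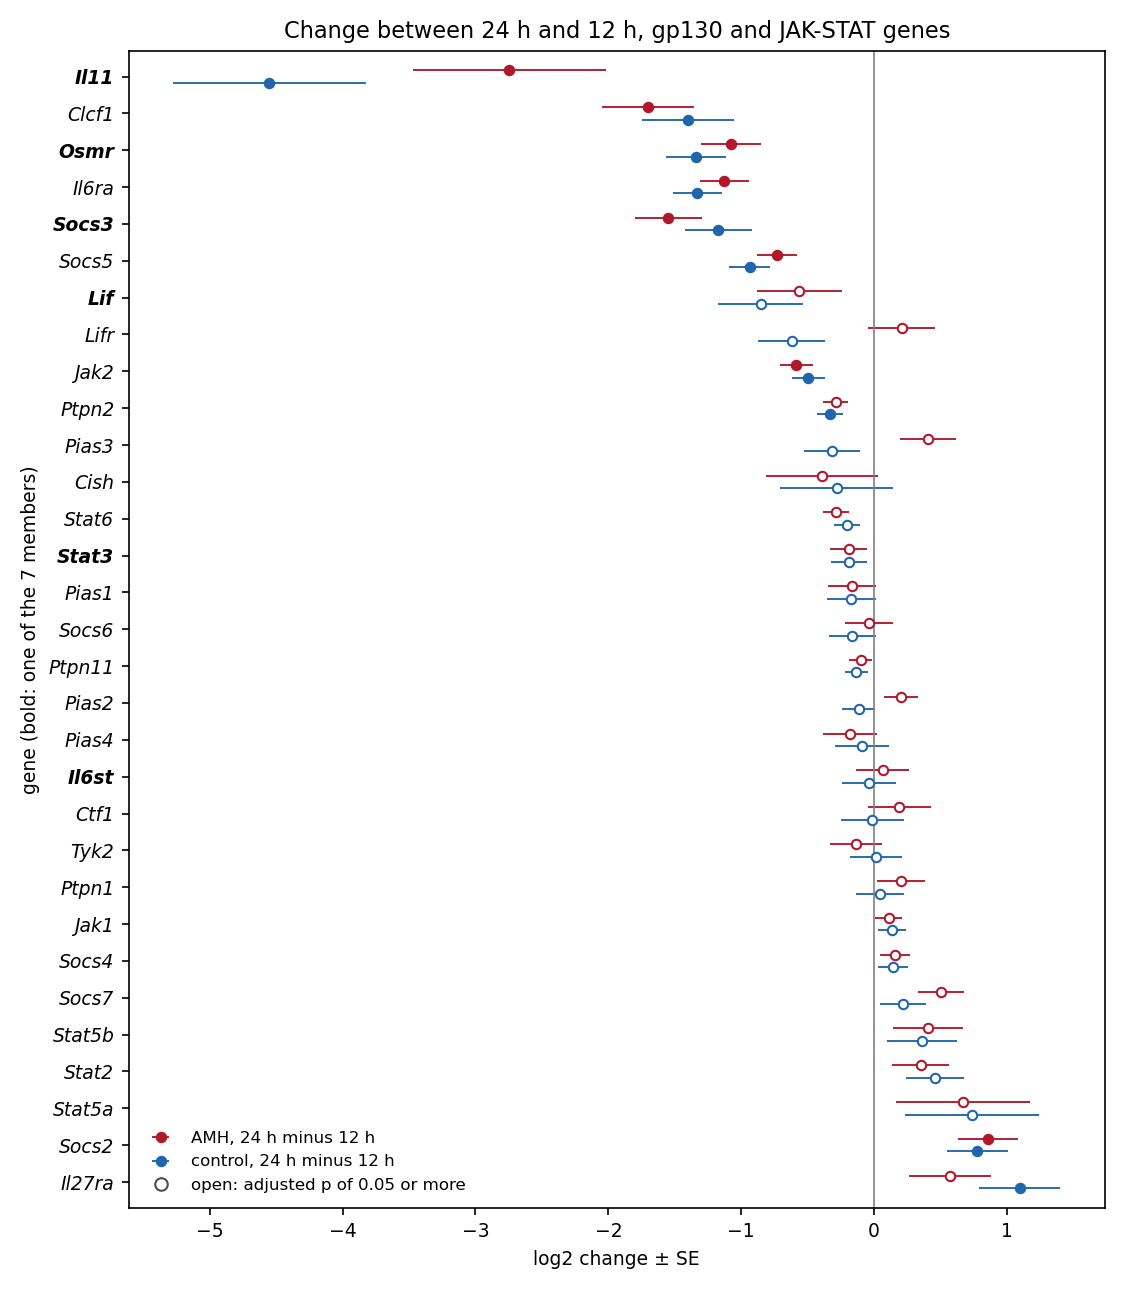
Log2 change between 24 h and 12 h (horizontal axis, points with SE bars, AMH and control arms) for the tested genes of the gp130 and JAK-STAT lists (vertical axis, members in bold), with filled points for a limma adjusted p under 0.05. Il11 lies farthest left of 0 in both arms, followed by Clcf1, Osmr, Il6ra and Socs3, and Il27ra and Socs2 are among the genes right of it.

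Of 25 genes known as STAT3 targets, 23 were tested, with 1 higher and 5 lower in the AMH arm and 0 higher and 9 lower in controls. The shares over all genes tested were 4.34% higher and 3.94% lower in the AMH arm, and 9.96% higher and 9.19% lower in controls. The list holds Socs3 and Osmr, which are counted among the lower genes in both arms. Like the other lists, it was chosen with earlier results of these data known. Its median change was −0.50 in the AMH arm and −0.60 in controls. Timp1, an inhibitor of matrix metalloproteinases, fell by 0.98 in the AMH arm (limma adjusted p = 0.00568) and fell by 0.93 in controls (limma adjusted p = 0.00358). Bcl3, a nuclear regulator of NF-kB, fell by 1.38 in the AMH arm (limma adjusted p = 0.00480) and fell by 1.10 in controls (limma adjusted p = 0.00935). Gadd45b, a stress-response gene, fell by 1.13 in the AMH arm (limma adjusted p = 0.00198) and fell by 0.74 in controls (limma adjusted p = 0.0120). Fos, a subunit of AP-1, changed by −1.13 in the AMH arm (limma adjusted p = 0.0668) and fell by 1.67 in controls (limma adjusted p = 0.00544). Il1r1, the interleukin 1 receptor, changed by −0.38 in the AMH arm (limma adjusted p = 0.116) and fell by 0.81 in controls (limma adjusted p = 0.00157). Steap4, a metalloreductase, rose by 1.15 in the AMH arm (limma adjusted p = 0.0389) and changed by 0.17 in controls (limma adjusted p = 0.760).

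Among 22 inflammatory cytokine genes outside the family, 6 were tested, with 0 higher and 1 lower in the AMH arm and 1 higher and 3 lower in controls. The shares over all genes tested are those given for the STAT3 targets. Il33, an alarmin of the interleukin 1 family, fell by 2.84 in the AMH arm (limma adjusted p = 0.00455) and fell by 3.31 in controls (limma adjusted p = 0.000768). Its mean log2 signal at 24 h, 3.76 with AMH and 3.67 in controls, was under the filter level of 4.18. At 12 h the Il33 mean was 6.60 with AMH and 6.98 in controls, so the gene was tested because of its 12 h signals. Cxcl1, a neutrophil chemokine, changed by −0.99 in the AMH arm (limma adjusted p = 0.245) and fell by 2.12 in controls (limma adjusted p = 0.00852). Il1rn, the interleukin 1 receptor antagonist, changed by −1.31 in the AMH arm (limma adjusted p = 0.0731) and fell by 1.51 in controls (limma adjusted p = 0.0234). Il18 changed by 0.99 in the AMH arm (limma adjusted p = 0.177) and rose by 1.75 in controls (limma adjusted p = 0.0106). No gene of any of these lists was called in an AMH comparison.

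Finally, the genes most alike were ranked by the correlation of log2 signal with Il11 and with Socs3 over the 16 arrays, among 12171 genes. These values are a description, since the arrays share 4 groups and the times differ. For Il11 they were Tmbim1 (r = 0.943), Ereg (0.939), Cinp (0.938), Cldnd1 (0.936) and Steap1 (0.935). Ereg encodes epiregulin, an EGF-like ligand of the ovulatory response, and it fell by 1.81 in the AMH arm (limma adjusted p = 0.0305) and fell by 2.53 in controls (limma adjusted p = 0.00230). After subtraction of the group means, r with Il11 was 0.84 for Tmbim1, 0.78 for Ereg, 0.79 for Cinp, 0.77 for Cldnd1 and 0.70 for Steap1. Among the members Osmr ranked 83rd (r = 0.886), Lif 367th (0.816) and Socs3 649th (0.764), and within groups r was 0.54 for Osmr, 0.71 for Lif and 0.18 for Socs3. Stat3 ranked 4110th for Il11 (r = 0.306, and −0.30 within groups) and Il6st 7323rd (r = −0.13, and −0.26 within groups).

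For Socs3 the most alike genes were Etf1 (r = 0.940), Slc7a3 (0.940), Il6ra (0.933), Edem1 (0.927) and Hgs (0.919). Within groups their r was 0.80 for Etf1, 0.73 for Slc7a3, 0.74 for Il6ra, 0.68 for Edem1 and 0.57 for Hgs. Stat3 ranked 914th for Socs3 with r = 0.655 over all arrays and 0.62 within groups. Il6st ranked 8021st, with r = −0.21.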

How the data were processed

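Biotin-labelled cDNA from 5 ng of total RNA of 6 to 9 follicles was hybridised to each of 16 Affymetrix arrays, 4 a group, as the labels' protocols state. The authors deposited 1 linear intensity for each probe set and array; the submitters' processing notes name MAS5. The files show a mean of 150 on every array after 2% was trimmed at each end. The genome build is not given in the sources used here, and no detection calls were used.

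Of 45101 probe sets 64 were controls. By GEO's platform annotation 34945 had 1 gene symbol, 932 several and 9160 none, and only those with 1 symbol were named. Promoters and gene positions came from RefSeq (GRCm38.p6), and all 7 members matched by symbol. Values were taken as log2(signal + 1.46), the 10th percentile of all values. Each gene was represented by its probe set of highest mean, and 12172 genes whose mean reached the 40th percentile were tested. Tests used limma 3.58.1 in R 4.3.3 (lmFit, eBayes with trend, two-sided, Benjamini-Hochberg over all genes tested, threshold 0.05) on all 16 arrays. AMH was compared with the 8 pairs as a block, and 24 h with 12 h by 4 group means. The arms and times share arrays, so the comparisons are not independent of each other. Figures were drawn with matplotlib 3.10.9. The fit was tested on simulated data.

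The pairs come from the labels, which give both arms of an experiment one pool. Deviations of AMH and control arrays from their group means correlated within pairs at −0.43, 0.25, 0.11 and −0.09 in the 24 h experiments. In the 12 h experiments the values were 0.26, 0.33, 0.50 and 0.22.

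The members and gene lists were chosen with earlier results of these data known. The text names all members, up to 4 called genes per list and comparison with the smallest p, and the 5 genes most alike. Alternatives were offsets of 1 and 16, no filter or a filter at the 60th percentile, quantile normalization, median centring, the mean over probe sets, the pair block or its absence, only the arrays compared, robust moderation and each replicate left out. The fit of each probe set separately was chosen after seeing the data. The number of arrays limits the precision.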

Additional observations from a re-analysis of the deposited data

Results flagged for a closer look

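Among the 28 groups of 4 arrays tested, 1 held an array far from the other 3. In its brightest probe set Il6st had a log2 signal of 8.49 in control replicate 1 at 24 h, and the other 3 control arrays at 24 h lay between 9.38 and 9.56. The gap to the nearest array was 0.835 of the group's range, just above Dixon's critical value for 4 samples. Chance gives about 5% of groups such a gap.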

How the results depend on the processing

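Over 30 member values, 410 of 434 alternative values kept their direction. This count includes settings that leave the change itself as it was, so that its direction could not turn. These were the filter settings, the block or its absence, robust moderation, only the arrays compared and each probe set fitted separately. The control calls of Il11 (14 settings), Osmr and Socs3 (15 each) and the AMH-arm call of Socs3 (15) held in all settings run. The AMH-arm call of Il11 was lost without each single replicate (−3.14 to −2.24, limma adjusted p = 0.0557 to 0.125), in fits with fewer arrays, and that of Osmr without replicate 4. Lif was called in controls with quantile normalization, median centring and the replicate block (−0.85, limma adjusted p = 0.0395). An offset of 16 gave −1.81 for Il11 in the AMH arm and −3.07 in controls. A filter at the 60th percentile left Il11 and Lif untested.

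The 2 genes called for AMH at 24 h became 0 with no filter, quantile normalization, the mean over probe sets, no replicate block or only the arrays compared. Quantile normalization gave 1 gene for AMH at 12 h and 1 for the difference between times. Median centring gave 564 calls (282 higher, 282 lower) for time in the AMH arm, and signs turned for Stat3 with AMH at 24 h (0.027) and between times (0.15). The mean over probe sets turned Il6st with AMH at 12 h (0.026) and Lif with AMH at 24 h (−0.018). The causes were not tested.

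Leaving out each replicate gave 0 to 0 calls for AMH at 12 h, 0 to 1 at 24 h, 0 to 1 for the difference between times, 346 to 638 for time with AMH and 1190 to 1548 for time in controls. The members whose sign turned then were, with AMH at 12 h, Lif (−0.13 to 0.11), Il6st (−0.089 to 0.048) and Osmr (−0.27 to 0.073). With AMH at 24 h they were Il11 (−0.21 to 0.81), Lif (−0.041 to 0.52), Il6st (−0.26 to 0.30), Osmr (−0.014 to 0.41), Stat3 (−0.26 to 0.040) and Socs3 (−0.44 to 0.13). For the difference between times they were Lif (−0.15 to 0.65), Il6st (−0.31 to 0.39) and Stat3 (−0.18 to 0.074). For time Il6st ranged over −0.051 to 0.19 with AMH and −0.20 to 0.26 in controls. None of these was called.

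Replicate numbers are shared between times, and the labels do not say whether same-numbered arrays share a pool. Their deviations correlated at 0.07 to 0.26 with AMH and −0.24 to 0.15 in controls, which does not settle it. With the replicate block, time gave 1235 calls with AMH and 2634 in controls, against 1008 and 2330 without it. Without the pair block, Il11 with AMH at 12 h had a limma adjusted p of 0.985. All Il6 and Il11 signals at 24 h were under the filter level, and the Il11 fold depends on the offset.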
